A study of Mus musculus with 6 samples.

Results

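The spleen cells examined here were sorted as Ly6Clo F4/80lo, that is, with little of the monocyte surface antigen Ly6C and little of the macrophage antigen F4/80, from mice with T cell acute lymphoblastic leukemia (T-ALL) and from normal mice. They make up 2 of the 6 RNA-seq libraries of the series, which also sorted Ly6Chi F4/80lo and Ly6Clo F4/80hi cells from the same kinds of spleen. The members are the 8767 of 16058 genes listed in any library that reached at least 5 FPKM (fragments per kilobase of transcript and per 1000000 mapped fragments) in at least 1 of the 2 Ly6Clo F4/80lo libraries. The T-ALL library came from C57BL/6 spleen at day 15 after 1000000 GFP+ leukemia cells, taken from leukemic mice, had been given to each non-irradiated recipient. The normal library came from C57BL/6 spleen labelled normal, with the disease state control, and the protocol places it at day 0. Recipients and normal mice were 6 to 8 weeks old. The labels do not say how many animals went into a library or whether they were pooled, and there was 1 library per state and gate, so no test could be made and every difference below is a difference between those libraries.

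Cells with low Ly6C and low F4/80 in the spleen are a mixed compartment. It is known to include patrolling monocytes, which crawl along vessel walls and keep the surface receptor Cx3cr1, and, unless lymphocytes and dendritic cells are gated out, those cells as well. The mouse spleen also makes red cells, granulocytes and platelets when demand is high, from progenitors that reside in the red pulp beside iron-recycling macrophages. T-ALL is a cancer of immature T lineage cells that infiltrates the spleen.

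The sort labels could be checked against the genes of the sort antigens. Ly6c2, which encodes a Ly6C antigen, was at 21.4 FPKM in the T-ALL and 19.9 FPKM in the normal Ly6Clo F4/80lo library, against 1405 and 482 FPKM in the T-ALL and normal Ly6Chi F4/80lo libraries. Adgre1, which encodes F4/80, was at 74.7 FPKM in T-ALL and 86.7 FPKM in normal Ly6Clo F4/80lo cells, against 234 and 529 FPKM in T-ALL and normal Ly6Clo F4/80hi cells. Both sort genes were thus low where the label says low, and differed little between T-ALL and normal within the gate. The labels call the cells macrophages, but genes that define other cell types were abundant in both libraries. The B cell antigen receptor component Cd79a was at 780 FPKM in T-ALL and 1167 FPKM in normal cells, and Ms4a1, which encodes CD20, was at 353 FPKM in T-ALL and 476 FPKM in normal cells. Zbtb46, a factor of conventional dendritic cells, was at 23.4 FPKM in T-ALL and 40.5 FPKM in normal cells, and Ncr1, a receptor of natural killer cells, was at 21.8 FPKM in T-ALL and 17.1 FPKM in normal cells. Treml4, a gene of patrolling monocytes, was at 164 FPKM in T-ALL and 117 FPKM in normal cells. Spic, the factor that red pulp macrophages require, was at 20.8 FPKM in T-ALL and 31.8 FPKM in normal cells. The gate is therefore called by its antigens throughout. In a bulk library of such a gate, fewer cells of a type and less RNA per cell cannot be told apart.

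Most genes had similar levels in T-ALL and normal Ly6Clo F4/80lo cells. The difference is given as the log2 ratio of (FPKM + 1), T-ALL over normal, a scale that understates the change of genes with low levels. Its median over the 8767 genes was 0.02, and 79.3% of the genes lay within 1.5-fold. With 2-fold taken as a fixed size rule, 499 genes (5.69%) were at least 2-fold higher and 134 genes (1.53%) at least 2-fold lower in T-ALL. At 4-fold, the counts were 104 genes higher (1.19%) and 12 genes lower (0.137%). Of the 499 higher genes, 224 had been under 5 FPKM in the normal library and entered the comparison only through their T-ALL level, and 52 of the 134 lower genes were under 5 FPKM in the T-ALL library. Pearson's r of log2(FPKM + 1) between the libraries, over genes of which none is an independent replicate, was 0.93. At the edge of the expression filter, Btnl10, at 5.0 FPKM in T-ALL and 0.25 FPKM in normal cells, was just inside, and Hgf, at 4.99 FPKM in T-ALL and 2.59 FPKM in normal cells, was just outside. At the edge of the fold rule, Mrto4, at 59.4 FPKM in T-ALL and 29.2 FPKM in normal cells, was just inside 2-fold, and Slc7a11, at 82.6 FPKM in T-ALL and 40.8 FPKM in normal cells, was just outside. Those genes are named for their place at the edges, after their values were seen, except Slc7a11, which belongs to a gene list described below. The spacing of the smallest FPKM values gave an estimated depth of 8110000 fragments for the T-ALL and 7750000 for the normal library, at which the counting error of a 2 kb transcript at 10 FPKM is 7.85% in T-ALL and 8.03% in normal cells.

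**Figure D1:**
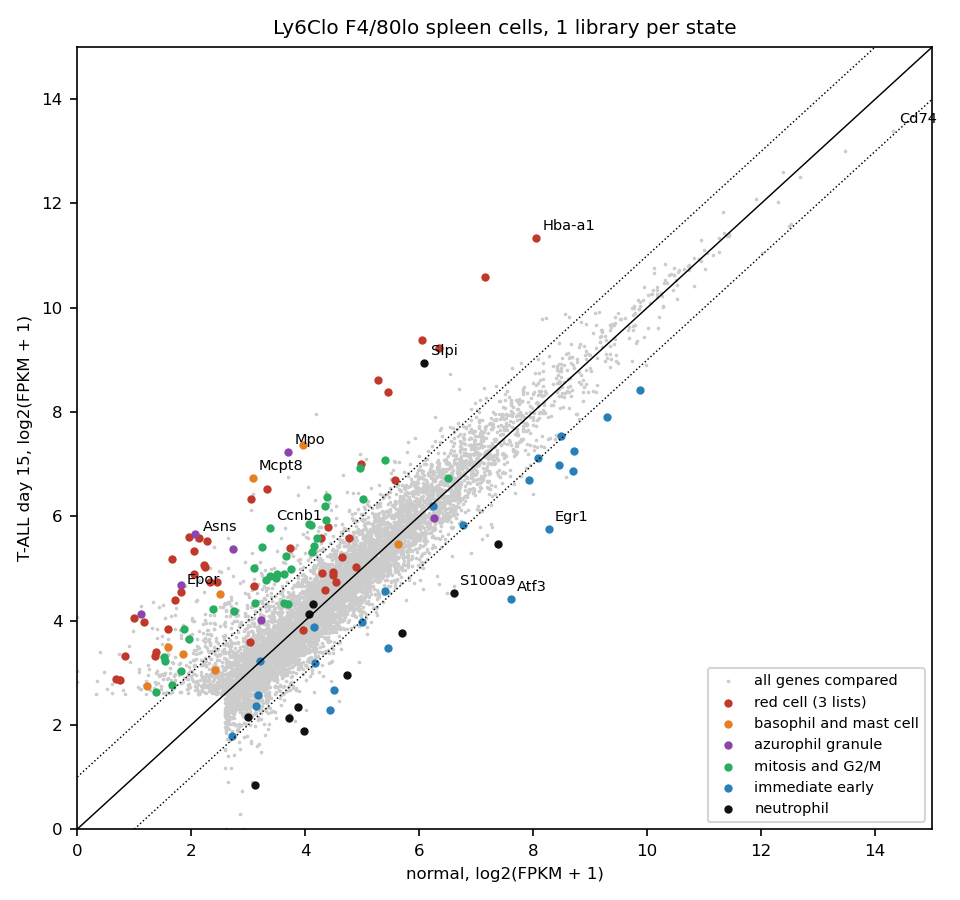
Level of each of the 8767 genes compared in the T-ALL library (vertical axis) against the normal library (horizontal axis) of Ly6Clo F4/80lo cells, both as log2(FPKM + 1); the solid line is equality and the dotted lines mark 2-fold. Genes of the red cell (red), basophil and mast cell (orange), azurophil granule (purple) and mitosis (green) lists lie mostly above the upper dotted line, 22 of 23 genes of the immediate early list (blue) and 9 of 12 of the neutrophil list (black) lie below the line of equality, and Slpi is the neutrophil list gene above the upper dotted line.

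Genes of the red cell lineage were numerous among the highest ratios. Of the 50 genes in 3 lists (globin and heme synthesis, red cell membrane and transport, erythroid factors), 44 were compared; 34 of them were at least 2-fold higher in T-ALL, against 5.69% of all genes compared, and none was at least 2-fold lower. Their median log2 ratio was 2.35, and 19 of the 40 highest genes of the comparison, among genes with at least 10 FPKM, belonged to these lists. In the membrane list 13 of the 21 compared members, and in the factor list 4 of 7, reached 5 FPKM in the T-ALL library alone, so their entry into the comparison depended on being high there. With no filter on level, the medians over all members with a gene ID in the files were 1.65 for globin and heme synthesis, 2.35 for the membrane list and 2.73 for the factors.

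Hba-a1, an alpha globin gene, was at 2579 FPKM in T-ALL and 265 FPKM in normal cells, a log2 ratio of 3.28. Hbb-bs, an adult beta globin gene, was at 1541 FPKM in T-ALL and 141 FPKM in normal cells (log2 ratio 3.44). Globin genes are near-identical copies, so reads may have been shared out among them, and the split between Hba-a1 and Hba-a2 or Hbb-bs and Hbb-bt is uncertain. Alas2, the first enzyme of heme synthesis in red cell precursors, was at 19.98 FPKM in T-ALL and 2.27 FPKM in normal cells. Ahsp, the alpha globin chaperone, has no value in either library and was not analysed here. Of the 16 genes of the globin and heme list that were compared, 11 were at least 2-fold higher and all 16 were above 0, with log2 ratios between 0.14 and 3.44.

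Membrane and transport genes showed the same direction. Cldn13, a claudin of mouse red cell precursors, was at 47.3 FPKM in T-ALL and 2.91 FPKM in normal cells, with the highest log2 ratio of the list at 3.63. Slc4a1, the anion exchanger band 3, was at 47.0 FPKM in T-ALL and 3.42 FPKM in normal cells. The carbonic anhydrases of red cells were the most abundant members, Car1 at 598 FPKM in T-ALL and 80.1 FPKM in normal cells and Car2 at 389 FPKM in T-ALL and 38.0 FPKM in normal cells. Rhag and Rhd, of the Rh membrane complex, were at 31.5 and 45.1 FPKM in T-ALL and at 3.70 and 3.86 FPKM in normal cells. Of the 21 members compared, 17 were at least 2-fold higher, and the list ranged from -0.14 to 3.63 on the log2 scale. Tfr2, a transferrin receptor of red cell precursors and liver that belongs to none of the lists, was at 18.8 FPKM in T-ALL and 1.83 FPKM in normal cells.

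The factors that drive red cell genes were higher too. Gata1, the GATA factor of red cell, megakaryocyte, basophil and eosinophil development, was at 32.3 FPKM in T-ALL and 3.69 FPKM in normal cells (log2 ratio 2.83). Klf1, which activates beta globin, was at 79.9 FPKM in T-ALL and 7.27 FPKM in normal cells (log2 ratio 3.29). Gfi1b, a transcriptional repressor that acts within the red cell and megakaryocyte lineages, was at 39.4 FPKM in T-ALL and 3.12 FPKM in normal cells. Hemgn, a target of GATA1, was at 35.2 FPKM in T-ALL and 2.15 FPKM in normal cells. Nfe2 was at 54.2 FPKM in T-ALL and 20.2 FPKM in normal cells, a smaller log2 ratio of 1.38, and Lmo2, an adaptor that is also used by other blood progenitors, was at 29.5 FPKM in T-ALL and 21.4 FPKM in normal cells (0.44). Epor, the receptor for erythropoietin, was at 22.3 FPKM in T-ALL and 2.51 FPKM in normal cells (log2 ratio 2.73). From the estimated fragments, the 95% exact binomial interval of the log2 FPKM ratio, which covers counting error only, was 2.54 to 3.83 for Epor and 3.14 to 3.79 for Klf1.

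**Figure D2:**
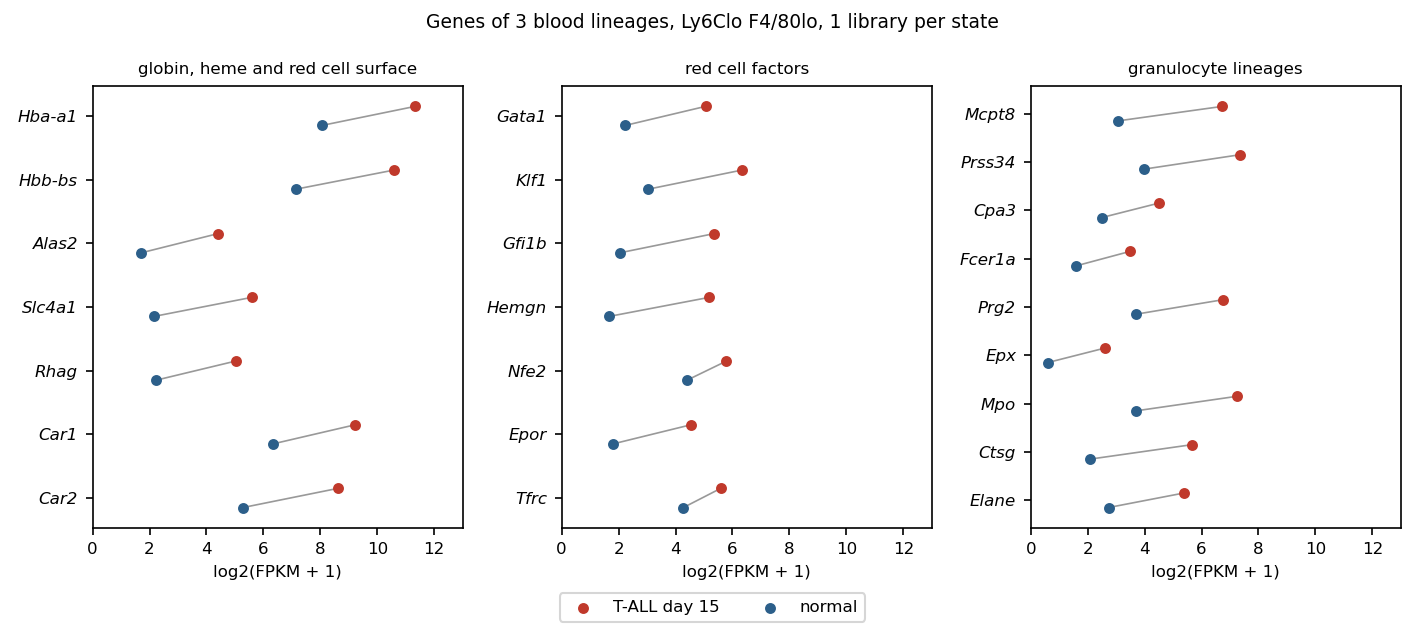
Levels of selected red cell, basophil, eosinophil and azurophil granule genes in Ly6Clo F4/80lo cells, as log2(FPKM + 1) on the horizontal axis; red points are the T-ALL library and blue points the normal library, 1 library each, joined by a line per gene. The red point lies to the right of the blue point for every gene shown, from Hba-a1 at 2579 FPKM in T-ALL to Epx at 5.11 FPKM in T-ALL.

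The stretches before the start of several of these genes hold short motifs of the factors just named. The motif of GATA factors was searched as AGATAA or TGATAA on both strands, in RefSeq promoter windows of 300 bases that run from 250 bases before to 50 bases after the start of each gene (build GRCm38.p6). It was found in 17 of the 29 compared red cell genes that had a window (58.6%), against 12.9% of the 7177 compared genes with a window and 5664 of all 27025 genes with one. The motif of KLF factors, CCNCNCCC, was found in 72.4% of the red cell genes and 70.2% of the genes compared, a similar share. A match is a run of letters and not a shown binding site. The 250 bases before the start are printed for the beta globin gene with the highest ratio, for the factor Klf1 and for Epor, whose ratio was near 0 in both other gates. Capitals mark matches to either motif on either strand, and each sequence runs in the direction of its gene.

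Hbb-bs, chr7:103827929-103828178, minus strand: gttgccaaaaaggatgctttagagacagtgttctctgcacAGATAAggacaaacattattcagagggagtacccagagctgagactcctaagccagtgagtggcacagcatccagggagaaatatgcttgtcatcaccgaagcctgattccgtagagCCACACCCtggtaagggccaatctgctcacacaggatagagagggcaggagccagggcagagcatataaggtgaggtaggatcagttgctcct
Klf1, chr8:84901732-84901981, plus strand: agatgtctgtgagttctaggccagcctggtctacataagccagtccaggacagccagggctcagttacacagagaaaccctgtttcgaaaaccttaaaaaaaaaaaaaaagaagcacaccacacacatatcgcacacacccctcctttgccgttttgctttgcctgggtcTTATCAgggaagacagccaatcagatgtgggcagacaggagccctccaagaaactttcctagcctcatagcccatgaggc
Epor, chr9:21963577-21963826, minus strand: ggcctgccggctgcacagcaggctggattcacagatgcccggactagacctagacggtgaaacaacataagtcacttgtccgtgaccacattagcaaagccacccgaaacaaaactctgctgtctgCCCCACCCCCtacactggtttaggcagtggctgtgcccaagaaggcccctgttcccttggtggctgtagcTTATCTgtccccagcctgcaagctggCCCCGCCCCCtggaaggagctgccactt

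In Hbb-bs the GATA motif starts 210 bases before the start and a KLF motif, CCACACCC, starts 93 bases before it. In Klf1 the GATA motif is on the other strand, 80 bases before the start, and the stretch holds no KLF motif. In Epor the GATA motif, also on the other strand, is 54 bases before the start, and 4 overlapping or neighbouring KLF matches start 124, 122, 28 and 26 bases before it.

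Across gates, the red cell genes were also high in T-ALL Ly6Clo F4/80hi cells. Those compared in Ly6Chi F4/80lo cells mostly differed by less than 2-fold. The gates have separate normal libraries, and no difference between gates was tested. The median log2 ratio of the membrane list was 2.48 in Ly6Clo F4/80lo cells, 0.10 in Ly6Chi F4/80lo cells (7 members compared) and 3.18 in Ly6Clo F4/80hi cells (24 members compared). That of the factors was 2.83 in Ly6Clo F4/80lo, -0.21 in Ly6Chi F4/80lo (2 members) and 2.70 in Ly6Clo F4/80hi cells (9 members). The 2 members in Ly6Chi F4/80lo cells were Nfe2 (log2 ratio -0.26) and Lmo2 (-0.16), so the factor medians cover unlike members. Klf1, Hemgn, Gfi1b and Gata1, under 5 FPKM in both Ly6Chi F4/80lo libraries, had log2 ratios there of 0.95, 0.76, 0.38 and 0.35. Hba-a1 was at 399 FPKM in T-ALL and 461 FPKM in normal Ly6Chi F4/80lo cells, and at 18610 FPKM in T-ALL and 2438 FPKM in normal Ly6Clo F4/80hi cells, so its level in the T-ALL Ly6Clo F4/80lo library was between those of the other T-ALL libraries. Epor behaved differently from the rest of its list. It was at 45.7 FPKM in T-ALL and 39.1 FPKM in normal Ly6Clo F4/80hi cells, a log2 ratio of 0.22, and at 1.49 FPKM in T-ALL and 1.48 FPKM in normal Ly6Chi F4/80lo cells. The normal Ly6Clo F4/80hi library, which had 4.10 FPKM of Gata1, therefore already held more Epor than the T-ALL Ly6Clo F4/80lo library, which had 32.3 FPKM of Gata1.

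Genes of the basophil and mast cell list were mostly higher in T-ALL as well. Mcpt8, a basophil granule protease, was at 106 FPKM in T-ALL and 7.43 FPKM in normal cells, a log2 ratio of 3.66 that was the highest among the named genes detected in both libraries. Prss34, another basophil protease, was at 163 FPKM in T-ALL and 14.7 FPKM in normal cells (log2 ratio 3.39). Cpa3, a carboxypeptidase of mast cells and basophils, was at 21.8 FPKM in T-ALL and 4.67 FPKM in normal cells. Both chains of the IgE receptor in the list were also higher, Fcer1a at 10.3 FPKM in T-ALL and 2.02 FPKM in normal cells and Ms4a2 at 5.74 FPKM in T-ALL and 1.34 FPKM in normal cells. Gata2, a factor of basophils, mast cells and progenitors, was at 9.31 FPKM in T-ALL and 2.60 FPKM in normal cells. Kit, the stem cell factor receptor, did not share the direction, with 43.4 FPKM in T-ALL and 48.6 FPKM in normal cells. Of 8 list members compared, 6 were at least 2-fold higher, against 5.69% of all genes, and none was 2-fold lower; 5 of the 8 reached 5 FPKM only in T-ALL, and the median over all 15 members with a gene ID in the files was 0.45. The GATA motif was found in 4 of these 8 genes, among them Prss34, whose 250 bases before the start are printed with the match in capitals because it was the most abundant basophil gene.

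Prss34, chr17:25298144-25298393, plus strand: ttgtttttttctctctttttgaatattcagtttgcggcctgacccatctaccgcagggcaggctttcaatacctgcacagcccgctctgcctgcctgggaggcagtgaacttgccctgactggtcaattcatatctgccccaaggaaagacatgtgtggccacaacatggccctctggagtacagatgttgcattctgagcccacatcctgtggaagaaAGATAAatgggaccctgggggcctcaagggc

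The AGATAA in Prss34 starts 31 bases before the start of the gene. In the other gates Mcpt8 was also higher in T-ALL, at 8.79 FPKM in T-ALL and 2.79 FPKM in normal Ly6Chi F4/80lo cells, and at 39.6 FPKM in T-ALL and 5.77 FPKM in normal Ly6Clo F4/80hi cells. The T-ALL Ly6Clo F4/80lo library had the highest summed basophil list level of the 6 libraries, 376 FPKM against 95.7 FPKM in its normal counterpart and 36.1 to 151 FPKM in the other 4 libraries.

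Genes of the eosinophil list went in different directions. Prg2, the major basic protein of eosinophil granules, was at 107 FPKM in T-ALL and 12.03 FPKM in normal cells (log2 ratio 3.05), and Epx, the eosinophil peroxidase, was at 5.11 FPKM in T-ALL and 0.52 FPKM in normal cells (2.01). Ccr3, the eotaxin receptor of mature eosinophils, was lower, at 2.77 FPKM in T-ALL and 9.13 FPKM in normal cells (-1.43). Its level was far higher in the other Ly6Clo gate, at 57.05 FPKM in T-ALL and 263.83 FPKM in normal cells (-2.19). Epx was at 1.07 FPKM in T-ALL and 0.24 FPKM in normal cells of that gate. Which cells the Ccr3 message came from was not tested. Il5ra, the interleukin 5 receptor, was at 9.95 FPKM in T-ALL and 14.7 FPKM in normal cells (-0.52). Ear2, a ribonuclease gene, was at 246 FPKM in T-ALL and 215 FPKM in normal cells (0.19). Siglecf, a surface receptor of eosinophils, was under the expression filter, at 1.81 FPKM in T-ALL and 0.32 FPKM in normal cells. Of 6 members compared, 2 were at least 2-fold higher (5.69% of all genes) and 1 was 2-fold lower (1.53% of all genes), with a median of 0.48. Of these 6, 2 reached 5 FPKM only in T-ALL, Epx among them, and 1, Ccr3, only in normal cells. Over all 9 members with no filter on level, 4 were 2-fold higher and 1 was 2-fold lower, with a median of 0.77.

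Most azurophil granule genes, which neutrophil and monocyte precursors express at the promyelocyte stage, were higher in T-ALL. Mpo, the myeloperoxidase, was at 149 FPKM in T-ALL and 11.96 FPKM in normal cells (log2 ratio 3.53), and Ctsg, the granule protease cathepsin G, was at 49.5 FPKM in T-ALL and 3.20 FPKM in normal cells (3.59). Elane, the neutrophil elastase, was at 40.6 FPKM in T-ALL and 5.67 FPKM in normal cells, and Prtn3, proteinase 3, was at 24.7 FPKM in T-ALL and 2.51 FPKM in normal cells. Ms4a3, a membrane protein of granulocyte and monocyte progenitors, was at 16.5 FPKM in T-ALL and 1.16 FPKM in normal cells. Of 7 members compared, 5 were at least 2-fold higher, against 5.69% of all genes, and none was 2-fold lower. Igsf6, an immunoglobulin superfamily gene of myeloid cells, was at 61.4 FPKM in T-ALL and 76.0 FPKM in normal cells. Of the 7, 3 reached 5 FPKM only in T-ALL, and over all 10 members, of which 3 were below 0, the median was 1.78 instead of 2.87. In Ly6Chi F4/80lo cells Mpo was higher still, at 745 FPKM in T-ALL and 101 FPKM in normal cells.

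Progenitor genes followed in part. Cd34, a surface protein of blood progenitors, was at 11.7 FPKM in T-ALL and 1.65 FPKM in normal cells, and Myb, a factor of immature blood cells, was at 12.52 FPKM in T-ALL and 3.63 FPKM in normal cells. Adgrg1, an adhesion receptor of stem cells and natural killer cells, was at 29.4 FPKM in T-ALL and 4.74 FPKM in normal cells, with the highest ratio of the list at 2.40. Flt3, the receptor of early lymphoid progenitors and dendritic cells, was lower, at 46.1 FPKM in T-ALL and 86.5 FPKM in normal cells. In the stem and progenitor list, 5 of the 9 members compared were at least 2-fold higher, against 5.69% of all genes, and none was 2-fold lower. Of these 9, 5 reached 5 FPKM only in T-ALL, and the median over all 14 members was 0.81. Of the megakaryocyte genes, Pf4, platelet factor 4, was at 22.4 FPKM in T-ALL and 3.68 FPKM in normal cells, and Itga2b, the platelet integrin chain, was at 10.4 FPKM in T-ALL and 2.06 FPKM in normal cells. Ppbp, another platelet gene, was at 5.11 FPKM in T-ALL and 4.36 FPKM in normal cells (log2 ratio 0.19). Only 4 of the 15 platelet genes were compared, and all 4 reached 5 FPKM in T-ALL alone. Of the 4, 2 were at least 2-fold higher, against 5.69% of all genes. Over all 15 with no filter on level, 3 were at least 2-fold higher and the median was 0.515.

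Genes of the cell division cycle formed the second broad group. Of 100 genes compared in 3 lists, 71 were at least 2-fold higher in T-ALL, against 5.69% of all genes compared, and none was 2-fold lower. Among the genes of DNA replication and G1/S, 26 of 33 were at least 2-fold higher and all 33 were above 0, with a median log2 ratio of 1.41. Of these 33, 5 reached 5 FPKM only in T-ALL. Cdc6, which loads the replicative helicase, was at 19.7 FPKM in T-ALL and 3.26 FPKM in normal cells. Ccne1, cyclin E1, was at 38.4 FPKM in T-ALL and 7.38 FPKM in normal cells, and Rrm2, a subunit of ribonucleotide reductase, was at 110.2 FPKM in T-ALL and 24.3 FPKM in normal cells. Of the genes of mitosis and G2/M, 31 of 34 were at least 2-fold higher and all 34 were above 0, with a median of 1.46. Of these 34, 8 reached 5 FPKM only in T-ALL, and the median over all 35 members was also 1.46. Ccnb1, cyclin B1, was at 53.8 FPKM in T-ALL and 9.45 FPKM in normal cells, and Plk1, a mitotic kinase, was at 41.4 FPKM in T-ALL and 8.40 FPKM in normal cells. Birc5, which encodes the chromosomal passenger survivin, was at 120.3 FPKM in T-ALL and 30.1 FPKM in normal cells. The replication-dependent histone genes were less uniform, with 14 of 33 at least 2-fold higher and a median of 0.97; 9 of the 33 reached 5 FPKM only in T-ALL. Over all 59 histone genes with no filter on level, the median was 0.44, with 18 at least 2-fold higher and 4 at least 2-fold lower. H2ac24 was at 886 FPKM in T-ALL and 283 FPKM in normal cells, and H2ac11, at 15.8 FPKM in T-ALL, was listed at 0 in normal cells. Histone genes are near copies of each other and their messages lack the usual tail, so single members are uncertain.

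Mitotic genes share a promoter element known as the cell cycle homology region, searched as TTTGAA or TTCGAA on both strands. It was in the window of 22 of the 28 compared mitosis genes that had one (78.6%), against 17.6% of the genes compared and 5 of 27 genes of the replication list (18.5%). CCAAT, the box that accompanies it, was in 21 of the 28, against 43.6% of the genes compared. The 250 bases before Cdc20, an activator of the anaphase-promoting complex that was at 82.0 FPKM in T-ALL and 19.8 FPKM in normal cells, show both, with matches in capitals.

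Cdc20, chr4:118437344-118437593, minus strand: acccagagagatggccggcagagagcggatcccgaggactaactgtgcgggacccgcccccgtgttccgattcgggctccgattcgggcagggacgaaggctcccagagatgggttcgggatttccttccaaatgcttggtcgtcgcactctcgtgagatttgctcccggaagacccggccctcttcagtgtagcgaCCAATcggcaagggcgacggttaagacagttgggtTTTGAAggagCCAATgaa

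The TTTGAA starts 18 bases, and the CCAAT boxes 53 and 8 bases, before the start of Cdc20. The division genes were higher in T-ALL in every gate: the median of the mitosis list was 1.46 in Ly6Clo F4/80lo, 1.70 in Ly6Chi F4/80lo and 2.18 in Ly6Clo F4/80hi cells. For the histones, the medians were 0.97 in Ly6Clo F4/80lo, 2.05 in Ly6Chi F4/80lo and 1.74 in Ly6Clo F4/80hi cells. Red cell and granulocyte precursors, whose genes were also higher in this gate, divide, and their part in the cell cycle values was not tested.

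Asns, which makes asparagine, was among the genes with the largest ratio outside blood lineage lists, at 45.8 FPKM in T-ALL and 3.25 FPKM in normal cells (log2 ratio 3.46). It is a known target of ATF4 in the response to amino acid shortage, and most other genes of that response differed by less than 2-fold. Of 20 members compared, 4 were at least 2-fold higher, against 5.69% of all genes, none was 2-fold lower, against 1.53%, and the median was 0.70. Psat1 and Phgdh, enzymes of serine synthesis, were at 42.5 and 115 FPKM in T-ALL and at 13.5 and 52.4 FPKM in normal cells. Nupr1, a small stress-induced nuclear protein, was at 72.6 FPKM in T-ALL and 33.9 FPKM in normal cells, whereas in Ly6Chi F4/80lo cells its log2 ratio was -1.41. Atf4 itself was at 143 FPKM in T-ALL and 180.2 FPKM in normal cells, and Ddit3, another gene of this response, was at 27.6 FPKM in T-ALL and 33.3 FPKM in normal cells; both are named after their values were seen. The amino acid response element, searched as TGATGNAA on both strands, was in 6 of 18 list genes with a window (33.3%), against 2.91% of the genes compared. The 250 bases before Asns are printed with the match in capitals, which starts 23 bases before the start of the gene.

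Asns, chr6:7693210-7693459, minus strand: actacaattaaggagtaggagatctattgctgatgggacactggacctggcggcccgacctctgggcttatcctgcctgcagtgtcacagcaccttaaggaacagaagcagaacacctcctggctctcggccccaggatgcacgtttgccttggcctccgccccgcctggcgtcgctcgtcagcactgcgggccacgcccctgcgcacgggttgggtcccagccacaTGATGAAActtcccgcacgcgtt

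Lists of metabolism and protein folding were shifted by less. Of the glycolysis genes, 4 of 17 were at least 2-fold higher, against 5.69% of all genes, with a median of 0.63; the lactate transporter Slc16a1, at 31.0 FPKM in T-ALL and 5.27 FPKM in normal cells, and the muscle type phosphofructokinase Pfkm, at 15.5 FPKM in T-ALL and 3.05 FPKM in normal cells, had the largest ratios. Among heat shock genes, the mitochondrial chaperonin Hspd1 was at 206 FPKM in T-ALL and 82.7 FPKM in normal cells, while Hspa1a, the stress-inducible Hsp70, was lower, at 19.9 FPKM in T-ALL and 53.4 FPKM in normal cells. The 76 nuclear genes of the respiratory chain and the 78 of the mitochondrial ribosome were all above 0, with medians of 0.47 and 0.43. Yet 1 of the 76 and none of the 78 were at least 2-fold higher, against 5.69% of all genes. The cytosolic ribosomal proteins had a median of 0.22 in Ly6Clo F4/80lo cells, against 1.11 in Ly6Chi F4/80lo and 1.34 in Ly6Clo F4/80hi cells.

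At the low end, the list with the most genes at least 2-fold lower was that of the immediate early genes. These are genes that cells switch on quickly, without new protein synthesis, after a stimulus. Of 23 compared, 12 were at least 2-fold lower in T-ALL, against 1.53% of all genes compared, none was 2-fold higher, and the median was -1.02. Of the 29 list members without a filter, 28 were below 0, and 10 of the 40 lowest genes with at least 10 FPKM came from this list. Atf3, a stress-induced repressor, had the lowest ratio of those genes, at 20.3 FPKM in T-ALL and 194 FPKM in normal cells (log2 ratio -3.19, 95% counting interval of the FPKM ratio -3.42 to -3.08). Egr1, a zinc finger factor, was at 52.9 FPKM in T-ALL and 307 FPKM in normal cells (-2.52). Of the AP-1 subunits, Fos was at 116 FPKM in T-ALL and 414 FPKM in normal cells, Fosb at 10.1 FPKM in T-ALL and 42.5 FPKM in normal cells, and Jun at 152 FPKM in T-ALL and 420 FPKM in normal cells. Feedback inhibitors were lower as well: Dusp1, a phosphatase of MAP kinases, was at 126 FPKM in T-ALL and 348 FPKM in normal cells, and Zfp36, which destabilises cytokine messages, was at 340 FPKM in T-ALL and 932 FPKM in normal cells. Dusp1 is one of 3 genes of the list, with Btg2 and Plk2, whose window holds the cyclic AMP response element TGACGTCA (3 of 20, 15.0%, against 3.76% of the genes compared). The 250 bases before Dusp1 are printed with that match, 143 bases before the start, in capitals.

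Dusp1, chr17:26508473-26508722, minus strand: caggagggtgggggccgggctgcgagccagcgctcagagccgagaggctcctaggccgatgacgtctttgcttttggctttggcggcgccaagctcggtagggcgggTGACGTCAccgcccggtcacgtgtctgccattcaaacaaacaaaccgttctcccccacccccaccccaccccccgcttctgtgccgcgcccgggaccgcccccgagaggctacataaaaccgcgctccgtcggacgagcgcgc

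The pattern differed by gene in the other gates. Atf3 was low in T-ALL in all 3, with log2 ratios of -3.19 in Ly6Clo F4/80lo, -2.59 in Ly6Chi F4/80lo and -2.19 in Ly6Clo F4/80hi cells. Egr1 had -2.52 in Ly6Clo F4/80lo, -0.18 in Ly6Chi F4/80lo and -1.65 in Ly6Clo F4/80hi cells, and Fos had -1.83, 0.26 and -1.45 in the same order. The list medians were -1.02 in Ly6Clo F4/80lo, -0.57 in Ly6Chi F4/80lo and -1.29 in Ly6Clo F4/80hi cells. Rgs1, an inhibitor of chemokine receptor signalling that is no member of the list, was at 108 FPKM in T-ALL and 381 FPKM in normal cells, and Pmaip1, which encodes the pro-apoptotic protein Noxa, was at 85.4 FPKM in T-ALL and 253 FPKM in normal cells.

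Most neutrophil genes were lower in T-ALL Ly6Clo F4/80lo cells. Of 12 compared, 9 were below 0 and 3 above, 8 were at least 2-fold lower (1.53% of all genes compared) and 1 was 2-fold higher (5.69% of all), with a median log2 ratio of -1.69. Of these 12, 5 reached 5 FPKM only in normal cells, so their entry depended on being high there. Over all 18 members with no filter on level, 12 were below 0 and 5 above, and the median was -0.79. S100a8 and S100a9, the subunits of calprotectin, were at 43.5 and 21.9 FPKM in T-ALL and at 166 and 96.8 FPKM in normal cells. The secondary granule gene Ngp was at 12.53 FPKM in T-ALL and 51.1 FPKM in normal cells, and Retnlg, a resistin-like gene of neutrophils, was at 0.80 FPKM in T-ALL and 7.64 FPKM in normal cells. Slpi, a protease inhibitor that neutrophils and other cells make, was the gene that was 2-fold higher, at 489 FPKM in T-ALL and 67.0 FPKM in normal cells (log2 ratio 2.85). Without Slpi the summed level of the list was 139 FPKM in T-ALL and 432 FPKM in normal cells, and with it 628 FPKM in T-ALL and 499 FPKM in normal cells. In Ly6Chi F4/80lo cells the same list was higher in T-ALL, with a median of 1.76, and its summed level was 49450 FPKM in T-ALL and 13920 FPKM in normal cells. The azurophil list, by contrast, had a positive median in both gates, 2.87 in Ly6Clo F4/80lo and 2.69 in Ly6Chi F4/80lo cells.

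Macrophage genes were lower in part. Of 21 red pulp macrophage and iron genes compared, 7 were at least 2-fold lower, against 1.53% of all genes, and 2 were 2-fold higher, near the 5.69% of all genes, with a median of -0.59. The summed list was 5696 FPKM in T-ALL and 6269 FPKM in normal cells, against 15690 and 30680 FPKM in T-ALL and normal Ly6Clo F4/80hi cells. A large part of these sums was the ferritin gene Ftl1. It was at 2721 FPKM in T-ALL and 2775 FPKM in normal Ly6Clo F4/80lo cells, and at 5979 and 11044 FPKM in T-ALL and normal Ly6Clo F4/80hi cells. Fcna, a ficolin of red pulp macrophages, was at 22.1 FPKM in T-ALL and 88.7 FPKM in normal cells, and Vcam1, their adhesion molecule, was at 24.9 FPKM in T-ALL and 80.4 FPKM in normal cells. Slc40a1, the iron exporter ferroportin, was at 23.4 FPKM in T-ALL and 65.7 FPKM in normal cells, and Trf, transferrin, was at 38.2 FPKM in T-ALL and 119 FPKM in normal cells. Axl, a receptor for dying cells, was at 6.15 FPKM in T-ALL and 20.96 FPKM in normal cells. Blvrb, biliverdin reductase B, which red cells also express, was higher, at 201 FPKM in T-ALL and 81.6 FPKM in normal cells, and so was Pparg, a lipid-sensing nuclear receptor, at 31.5 FPKM in T-ALL and 14.6 FPKM in normal cells. The complement genes C1qa, C1qb and C1qc were at 46.3, 54.7 and 48.9 FPKM in T-ALL and at 136, 155 and 144 FPKM in normal cells, with log2 ratios of -1.53, -1.48 and -1.54. The complement list as a whole did not share that direction, with 6 of 11 compared members above 0 and a median of 0.06. Of the 11, 4 were at least 2-fold lower, against 1.53% of all genes, and 1 was 2-fold higher, against 5.69%. The mannose receptor Mrc1 was at 3.22 FPKM in T-ALL and 13.1 FPKM in normal cells, and Mmp12, the macrophage elastase, was at 4.52 FPKM in T-ALL and 22.97 FPKM in normal cells. Csf1r, the growth factor receptor of monocytes and macrophages, was not lower, at 256 FPKM in T-ALL and 218 FPKM in normal cells (log2 ratio 0.23), whereas its log2 ratio was -1.01 in Ly6Chi F4/80lo and -1.37 in Ly6Clo F4/80hi cells.

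**Figure D3:**
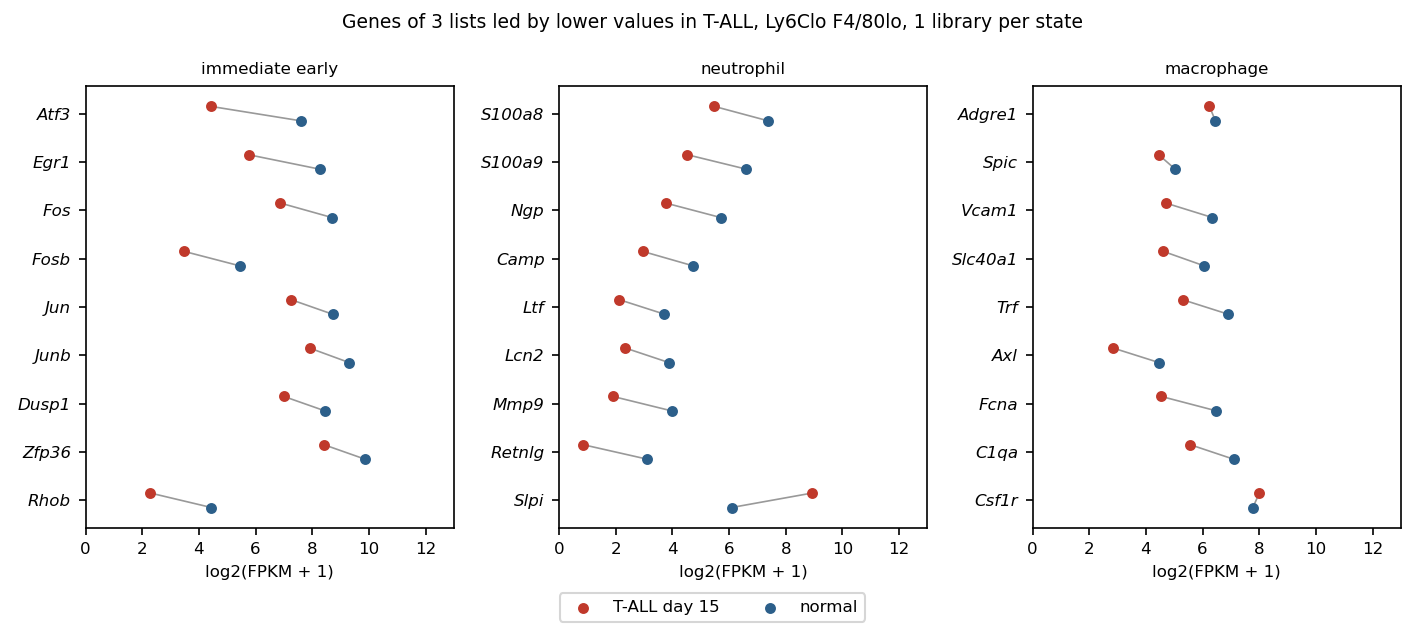
Levels of selected immediate early, neutrophil and macrophage genes in Ly6Clo F4/80lo cells, as log2(FPKM + 1) on the horizontal axis; red points are the T-ALL library and blue points the normal library, 1 library each, joined by a line per gene. Red points lie to the left of blue ones for every immediate early gene shown and for the neutrophil genes other than Slpi, and in the macrophage panel Csf1r, at 256 FPKM in T-ALL and 218 FPKM in normal cells, is the gene whose red point is to the right.

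Genes of patrolling monocytes were mostly higher by small ratios. Of 15 compared, 12 were above 0 and the median was 0.46; 2 were at least 2-fold higher, against 5.69% of all genes, and none was 2-fold lower, against 1.53%. Spn, which encodes CD43, was at 85.0 FPKM in T-ALL and 38.8 FPKM in normal cells, and Fabp4, a fatty acid carrier, was at 71.4 FPKM in T-ALL and 31.6 FPKM in normal cells. Cx3cr1, the fractalkine receptor, was at 53.1 FPKM in T-ALL and 40.8 FPKM in normal cells. Nr4a1, which these monocytes need and which is also an immediate early gene, was at 186 FPKM in T-ALL and 359 FPKM in normal cells (log2 ratio -0.94). In Ly6Chi F4/80lo cells the list median was -0.77. Among Fc receptors, Fcgr4, an activating receptor of patrolling monocytes and macrophages, stood out, at 425 FPKM in T-ALL and 92.0 FPKM in normal cells (2.19), with ratios of 0.83 in Ly6Chi F4/80lo and 0.87 in Ly6Clo F4/80hi cells. Ms4a6d, a membrane protein of myeloid cells, was at 46.7 FPKM in T-ALL and 5.26 FPKM in normal cells (2.93), while it was at 52.1 FPKM in T-ALL and 45.5 FPKM in normal Ly6Chi F4/80lo cells. The low value of Ms4a6d was thus the one in the normal Ly6Clo F4/80lo library.

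Antigen presentation genes of class II were lower, all by less than 2-fold. Cd74, the invariant chain and the most abundant gene of both libraries, was at 10657 FPKM in T-ALL and 20333 FPKM in normal cells (log2 ratio -0.93, and 0 under quantile normalization, where it ranks first in both libraries). H2-Ab1, a class II chain, was at 3121 FPKM in T-ALL and 5909 FPKM in normal cells, and Ciita, the activator of these genes, was at 84.5 FPKM in T-ALL and 160.2 FPKM in normal cells. All 11 genes of the list were below 0, none was 2-fold lower, against 1.53% of all genes, and the median was -0.91. The list held 3.82% of the summed FPKM in T-ALL and 7.39% in normal cells. The class I and immunoproteasome genes had a median of 0.11, with B2m at 6183 FPKM in T-ALL and 5335 FPKM in normal cells.

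Genes of cells that carry class II were lower as well, with a summed B cell list of 3473 FPKM in T-ALL and 5115 FPKM in normal cells and a summed shared dendritic cell list of 522 FPKM in T-ALL and 867 FPKM in normal cells. The part of these cells in the class II values was not tested. All 8 shared conventional dendritic cell genes were below 0, with a median of -0.77; Zbtb46 is given above, and Ccr7, the receptor that leads dendritic cells to T cell zones, was at 181 FPKM in T-ALL and 312 FPKM in normal cells. Cd209a, a lectin of a dendritic cell subset, had the lowest ratio of these lists, at 24.5 FPKM in T-ALL and 96.5 FPKM in normal cells (-1.94). Of the 15 B cell genes, 14 were below 0, and the median was -0.58. None was 2-fold lower, against 1.53% of all genes, or 2-fold higher, against 5.69%. Fcer2a, the low affinity IgE receptor CD23 of follicular B cells, was at 121 FPKM in T-ALL and 232 FPKM in normal cells. Plasma cell genes went the other way, with 5 of 11 at least 2-fold higher, against 5.69% of all genes, and a median of 0.96; Jchain, which joins IgA and IgM, was at 941 FPKM in T-ALL and 376 FPKM in normal cells. Mzb1, a chaperone of antibody-secreting cells, was at 457 FPKM in T-ALL and 196 FPKM in normal cells.

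T cell genes ranged widely in level and mostly had small ratios. The receptor chains Cd3e and Cd3d were at 3.71 and 7.18 FPKM in T-ALL and at 6.53 and 9.91 FPKM in normal cells. The list of 14 compared genes had a median of -0.38, with none 2-fold higher (5.69% of all genes) and 1 2-fold lower (1.53% of all genes). That gene was Cd4, a coreceptor that some dendritic cells also carry, at 26.6 FPKM in T-ALL and 63.4 FPKM in normal cells. Of the 14, 3 reached 5 FPKM only in normal cells and 1 only in T-ALL, and the median over all 18 members was -0.23. Cd2, an adhesion molecule of T, natural killer and other lymphoid cells, was at 64.8 FPKM in T-ALL and 100.6 FPKM in normal cells. The summed level of the T cell list was 188 FPKM in T-ALL and 285 FPKM in normal cells. Ptcra, which encodes the receptor chain of immature thymocytes, was at 3.64 FPKM in T-ALL and 3.21 FPKM in normal cells, under the expression filter. Natural killer genes had a median of -0.07 over 13 genes. Of the 13, 1 was at least 2-fold higher, against 5.69% of all genes, and none was 2-fold lower. The higher one was Gzmb, a granule protease of killer cells, at 31.4 FPKM in T-ALL and 9.88 FPKM in normal cells. In Ly6Chi F4/80lo cells, 10 of 13 natural killer genes were at least 2-fold lower in T-ALL (background 4.46%).

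**Figure D4:**
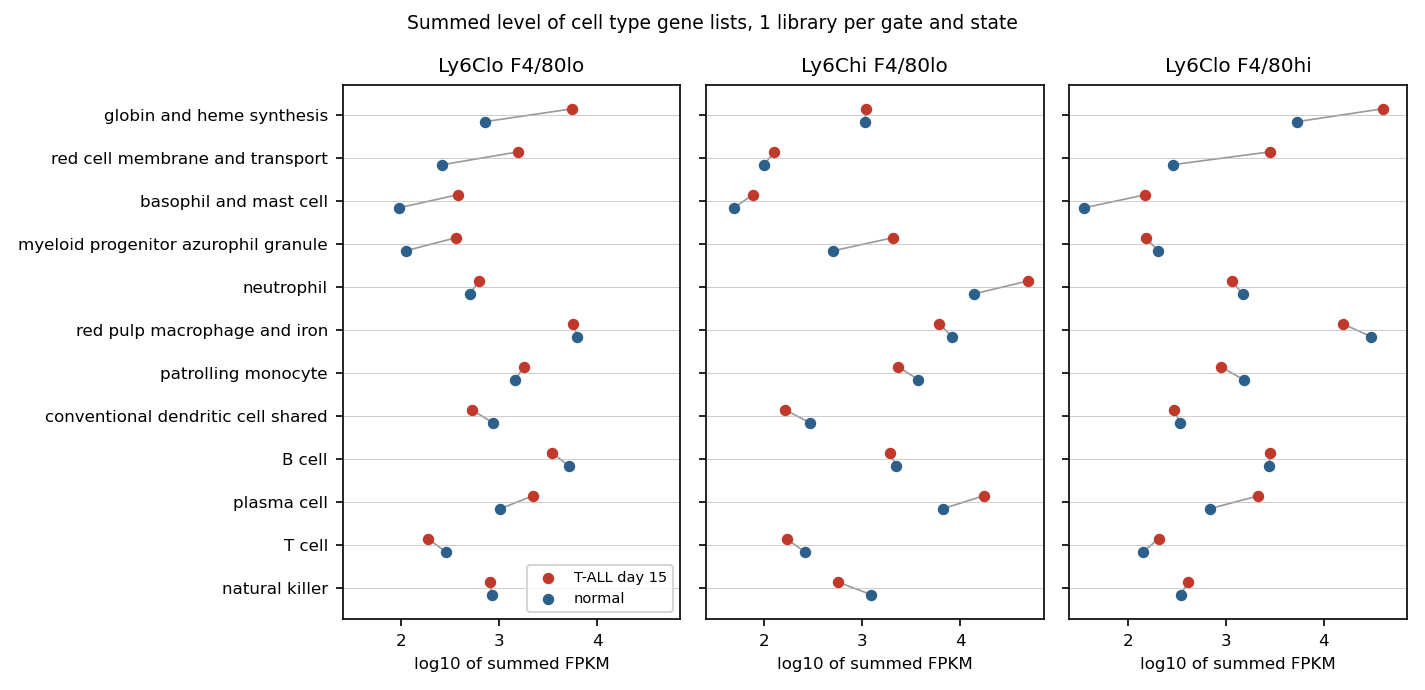
Summed FPKM of 12 cell type gene lists (horizontal axis, log10 scale) in the 6 libraries, 1 panel per gate; red points are T-ALL and blue points normal. In Ly6Clo F4/80lo cells the globin and heme list is at 5584 FPKM in T-ALL and 713 FPKM in normal cells, while the B cell list is at 3473 FPKM in T-ALL and 5115 FPKM in normal cells.

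Interferon and inflammatory lists differed in direction, mostly by small ratios. Of 28 type I interferon stimulated genes, 14 were above and 14 below 0, with a median of -0.03. Isg20, a nuclease, was the 1 gene at least 2-fold higher, against 5.69% of all genes, and none was 2-fold lower. Irf7, the factor that amplifies type I interferon, was at 67.9 FPKM in T-ALL and 79.5 FPKM in normal cells. The interferon regulatory factors were below 0 in 7 of 8 cases, with a median of -0.26. Of 14 genes induced by interferon gamma, 12 were above 0, with a median of 0.35. The 2 below 0 were Ciita (log2 ratio -0.91) and Gbp4 (-0.65). Of the 14, 2 were at least 2-fold higher, against 5.69% of all genes, and none was 2-fold lower. These 2 were the GTPase genes Iigp1, at 6.60 FPKM in T-ALL and 0.68 FPKM in normal cells, and Tgtp1, at 24.2 FPKM in T-ALL and 8.70 FPKM in normal cells. Iigp1 was 1 of 2 list members that reached 5 FPKM only in T-ALL. In the inflammatory list of 20 genes, 16 were below 0, 3 were at least 2-fold lower, against 1.53% of all genes, and none was 2-fold higher, with a median of -0.41. Those 3 genes reached 5 FPKM only in normal cells. Over all 24 members with no filter on level, 3 were 2-fold lower and 1 was 2-fold higher, with a median of -0.37. Cxcl2, a chemokine that draws neutrophils, was at 0.23 FPKM in T-ALL and 6.22 FPKM in normal cells, and Ptgs2, an enzyme of prostaglandin synthesis, was at 0.67 FPKM in T-ALL and 6.43 FPKM in normal cells. Xcl1, a chemokine of natural killer and T cells, was higher, at 53.7 FPKM in T-ALL and 11.6 FPKM in normal cells, and Spp1, the secreted matrix protein osteopontin, was at 13.3 FPKM in T-ALL and 1.63 FPKM in normal cells.

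Set beside the other gates, the higher genes of Ly6Clo F4/80lo cells shared a larger fraction with Ly6Clo F4/80hi than with Ly6Chi F4/80lo cells. In that gate 959 of 8905 genes (10.8%) were at least 2-fold higher and 583 (6.55%) lower; in Ly6Chi F4/80lo cells 629 of 8371 (7.51%) were higher and 373 (4.46%) lower. Over the genes compared in both Ly6Clo gates, 384 were higher in both, which is 82.2% of the 467 in F4/80lo and 43.2% of the 888 in F4/80hi cells. With Ly6Chi F4/80lo cells, 223 were shared, which is 59.2% of the 377 in Ly6Clo F4/80lo and 41.0% of the 544 in Ly6Chi F4/80lo cells. Of the lower genes, 67 were shared with Ly6Clo F4/80hi cells (58.3% of 115 and 17.8% of 377) and 42 with Ly6Chi F4/80lo cells (44.7% of 94 and 13.2% of 319). In opposite directions, 10 genes were 2-fold lower in Ly6Clo F4/80lo and 2-fold higher in Ly6Chi F4/80lo cells. Among genes at least 2-fold different in Ly6Clo F4/80lo cells, 20 higher and 14 lower ones had log2 ratios within 0.5 of 0 in both other gates; Ms4a6d and Epor had the largest ratios of the 20.

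**Figure D5:**
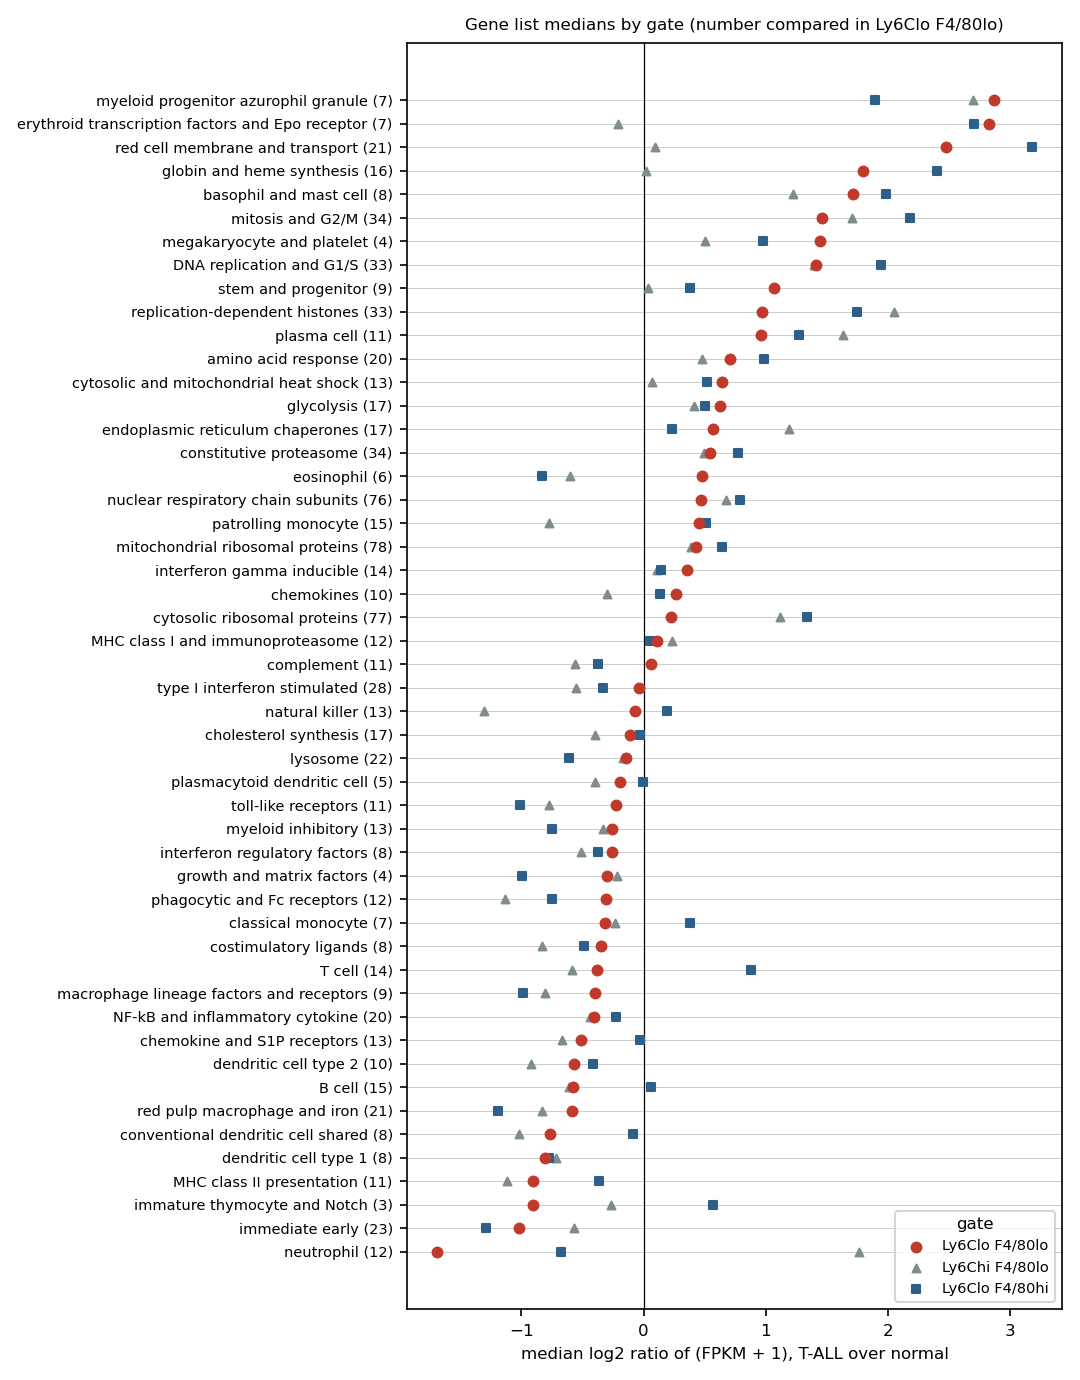
Median log2 ratio of (FPKM + 1), T-ALL over normal, for each gene list with at least 3 members compared, in Ly6Clo F4/80lo (red circles), Ly6Chi F4/80lo (grey triangles) and Ly6Clo F4/80hi cells (blue squares), each over the members compared in its own gate; the number after a list's name is its members compared in Ly6Clo F4/80lo cells. Lists run from the azurophil granule list, at 2.87, down to the neutrophil list, at -1.69 in Ly6Clo F4/80lo and 1.76 in Ly6Chi F4/80lo cells.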

How the data were processed

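Total RNA of sorted spleen cells was sequenced with Illumina protocols, per the labels. The authors deposited FPKM values per gene, with 2 decimals and with genes at 0 left out. Bowtie2 2.2.5 and RSEM are the tools listed, per the submitters' processing notes. Neither build nor annotation is given in the sources used here. A gene missing from a file was counted as 0. Gene IDs were matched to symbols through RefSeq GRCm38.p6 (16017 of 16058, 99.7%). The ratio is log2 of (T-ALL FPKM + 1) over (normal FPKM + 1), for genes that reach 5 FPKM in either library. With 1 library per state no test was possible, so a fixed 2-fold rule was used; gate and state cannot be told apart from library effects. FPKM is relative to all RNA in a library, so a large increase of a few genes lowers the others. Depth was estimated from the spacing of low FPKM values with GENCODE M21 transcript lengths, a step tested on simulated data, and gives counting error only; reads are not independent molecules.

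The members and the 52 gene lists (1045 symbols) were chosen with earlier results of these data known. Genes named are 8 fixed ones (Adgre1, Cd68, Csf1r, Irf7, Itgam, Ly6c1, Ly6c2, Ptprc), the 40 highest and 40 lowest ratios with at least 10 FPKM, each list's defining members and its 8 largest ratios, and the 15 most abundant genes per library. Immunoglobulin and T cell receptor segments, predicted genes and genes without a symbol are not named, and 2 further genes are not reported here. Alternatives were the pseudocount, the expression filter and 3 rescalings. Values were computed with Python 3.11.15, numpy 2.4.6, pandas 2.3.3 and scipy 1.17.1.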

Additional observations from a re-analysis of the deposited data

Results flagged for a closer look

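The neutrophil list and single genes had opposite directions in the 2 F4/80lo gates, Ly6Clo and Ly6Chi. With 1 library per gate and state, the difference between gates was not tested. The list median log2 ratio was -1.69 in Ly6Clo F4/80lo cells and 1.76 in Ly6Chi F4/80lo cells, over the members compared in each gate. With no filter on level, the median over all 18 members was -0.79 in Ly6Clo F4/80lo cells. The calprotectin genes had log2 ratios of -1.91 (S100a8) and -2.09 (S100a9) in Ly6Clo cells, against 1.89 (S100a8) and 1.96 (S100a9) in Ly6Chi cells. Among the secondary and tertiary granule genes, Lcn2 had -1.54 in Ly6Clo and 1.93 in Ly6Chi cells, Ltf had -1.59 in Ly6Clo and 1.15 in Ly6Chi cells, and Camp had -1.79 in Ly6Clo and 1.47 in Ly6Chi cells. Ngp had -1.94 in Ly6Clo and 1.31 in Ly6Chi cells, and Mmp9, a granule gelatinase, had -2.08 in Ly6Clo and 1.76 in Ly6Chi cells. Retnlg showed the widest separation, with -2.26 in Ly6Clo and 3.004 in Ly6Chi cells. Chil3, a chitinase-like gene of monocytes and neutrophils, had -1.05 in Ly6Clo and 1.08 in Ly6Chi cells. Nupr1 was the gene with the other direction, with 1.08 in Ly6Clo and -1.41 in Ly6Chi cells.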

How the results depend on the processing

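No paired analysis was possible because each gate and state has 1 library, and for the same reason no replicate could be left out. A pseudocount of 5 gave 297 genes at least 2-fold higher and 57 lower, and a filter of at least 20 FPKM gave 244 higher and 66 lower over the 4663 genes left. The red cell membrane median was 3.06 with a pseudocount of 0.1 and 1.70 with 5, and the mitosis median 1.16 with 5, as a larger pseudocount shrinks ratios of low genes. The immature thymocyte and Notch median, -0.91 over 3 genes, was 0.077 with a filter of 1 FPKM and with none, over more genes. Quantile normalization gave list medians of 0.34 for patrolling monocyte, -0.016 for MHC class I, 0.10 for cytosolic ribosomal, 0.33 for respiratory chain and 0.40 for proteasome genes, and placed the median of all genes at -0.055 rather than 0.02; the cause was not tested. Of 168 named genes at 2-fold, 143 remained past it with a pseudocount of 5 and 156 with quantile normalization, and all 168 kept their sign in both. Depth, an estimate, gave a counting error of 11.1% in T-ALL and 11.4% in normal cells for a 2 kb transcript at 5 FPKM. The error is larger for genes at lower levels or with shorter transcripts, and it leaves out variation between animals.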
